A study of Rattus norvegicus with 9 samples.

Results

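The genes described here are the cytosolic ribosomal protein genes of the rat, read from RNA-seq of medial prefrontal cortex. They were chosen by name alone: protein-coding entries of the deposited count table called Rpsa, Rplp0, Rplp1 or Rplp2, or starting with Rpl or Rps and a number, without the Rps6 kinase genes, the Rps19 binding protein genes and pseudogene symbols. The rule found 88 of 37991 genes, with 87 distinct symbols because Rps19 stands under 2 gene IDs. Of these, 86 were among the 18047 genes that passed the filter on low counts and were tested. The other 2 were Rpl30l1, with 3 counts over all libraries, and Rpl39l, a testis-type copy of Rpl39, with 5.

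Ribosomal proteins and ribosomal RNA form the small subunit, which reads the mRNA, and the large subunit, which joins amino acids. Nearly all of them are needed in equal number, and their mRNAs are short and among the most abundant of the cell. Many of these mRNAs begin with a C and a run of pyrimidines, the 5′ terminal oligopyrimidine (TOP) tract, through which mTOR signalling and the protein Larp1 set their translation and stability. In neurons, ribosomal protein mRNAs are also found in axons and dendrites.

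The samples came from Wistar Kyoto rats, a strain with depression-like behaviour, and all were collected on day 15. Control rats had no treatment, the K4 group got K4 (known here by its code only) by intravenous cannula for 7 days, and the Ketamine group got ketamine, an NMDA receptor antagonist, under the skin for 7 days. Both treated groups then had 7 days of withdrawal. The labels give no dose, vehicle, age or sex. Route differs between the treated groups and Control had no cannula or injection, so compound, route and handling cannot be told apart. Each group had 3 libraries, and since nothing says that they came from separate animals, p-values measure only the spread between libraries.

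TOP tracts were looked for at the annotated starts in RefSeq (build GRCr8), matched by gene ID for 68 of the 88 genes (69 start sequences). The motif was a C followed by at least 4 more pyrimidines (C or T), read on the strand of the gene only. It began exactly at the annotated first base in 22 of the 69 sequences (31.9%), against 2.63% of all 33469 start sequences in the table and 2.79% of those of tested genes. Allowing it to begin within 10 bases on either side, 48 of 69 (69.6%) held it, against 28.9% of all start sequences. A few windows are printed because their genes carry the results that follow. Each is 30 bases long, read 5′ to 3′, and begins 5 bases before the annotated start, with the tract in capitals.
Rps27: tcgCTCCTTTCCggcggtgacgacctccct
Rpl31: tcgcgCCTTTCCTTTCCaacttgggcccgg
Rpl28: agtgtCTTTCTTTCCgtctccggccgccgc
Rpl9: gttCTCTCTTTgccccatctactgcgaggt
Rplp0: caCTTCTCTCgccaggcgtcctcattagag
Rpl41: aagtgacgacaccaagcacgccattaaata
Rpl36: gccatcggaaagctgcaggtaagtccgtct
Rpl22l1: tatccggttccgagttgcgcagcgcgcacg
The windows of Rps27 (chr2:177964582-177964611), Rpl28 (chr1:78083508-78083537), Rplp0 (chr12:46718366-46718395) and Rpl41 (chr7:1563473-1563502) lie on the minus strand. Those of Rpl31 (chr9:49143106-49143135), Rpl9 (chr14:43247585-43247614), Rpl36 (chr9:1533775-1533804) and Rpl22l1 (chr2:113683191-113683220) lie on the plus strand. Rps27, Rpl31 and Rpl28 were called higher in Ketamine than in Control and have a tract, while Rpl41 and Rpl36 were called too and have none in these windows. Rpl9 and Rplp0 have a tract and were not called in the main fit of all 9 libraries. Over the tested genes with a start sequence, the median log2 fold change of Ketamine over Control was 0.15 for the 48 with a tract and 0.18 for the 18 without. In K4 over Control these medians were 0.071 and 0.084. A match or its absence describes only the letters of these windows.

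Library totals ran from 27122207 to 42731004 counts, and the 3 Control libraries, at 40863756 or more, were all deeper than the 6 treated ones, so depth and treatment cannot be told apart. The 13 mitochondrially encoded protein genes took 14.6%, 18.95% and 11.6% of the counts in Control replicates 1, 2 and 3, against 10.4% to 11.8% in the treated libraries. Control replicate 2 stood apart from the other libraries also in marker genes of brain cells. Its summed astrocyte markers (Aqp4, Gfap, Slc1a2, Slc1a3, Gja1, Aldh1l1 and S100b) stood at 5658 CPM, counts scaled by TMM to library size, against 4033 and 3531 in the other Control libraries. Its 7 neuronal markers were the lowest of all libraries at 4097 CPM, against 4829 and 5196 in the other Control libraries and 4777 to 5194 in the treated ones. The counts of called genes and the medians over all tested ribosomal protein genes together are therefore given with and without it. Calls in marker and other gene lists, counts of groups without overlap and the test of 3 groups together include it. So do the counts and medians by subunit, stalk, paralog or tract.

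Ribosomal protein mRNAs took a slightly larger part of the counts in the treated libraries. They made up 0.928%, 1.03% and 0.859% of the counts in Control. The K4 libraries held 1.07%, 1.09% and 1.07%, and the Ketamine libraries 1.06%, 1.15% and 1.17%. Every treated library was above every Control library on this scale. With the counts of the mitochondrially encoded genes taken out of the total, the Control values became 1.09%, 1.27% and 0.972%, K4 1.20%, 1.23% and 1.19%, and Ketamine 1.21%, 1.29% and 1.32%. Control replicate 2 then lay above all 3 K4 libraries, so the groups overlapped. On the deposited TPM, which divides by transcript length, the 88 genes took 2.85%, 2.93% and 2.78% in Control. The K4 libraries, at 3.46%, 3.47% and 3.47%, and the Ketamine libraries, at 3.33%, 3.67% and 3.61%, did not overlap with Control. The TPM total still held the mitochondrially encoded genes. Division by length also does not take off a dependence on length that differs between libraries.

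The genes moved together from library to library. For each gene, log2 CPM was taken minus the gene's mean over all 9 libraries, and the median of the 86 genes is the level of the group in a library. That level was −0.13, 0.12 and −0.27 in the Control libraries. It was −0.010, 0.062 and −0.017 with K4 and 0.010, 0.10 and 0.12 with Ketamine. Control spread over a wider range than both treated groups together. Control replicate 2 was the highest Control library for 82 of the 86 genes, and Control replicate 3 the lowest for 75. The group means (± SD, n = 3) were −0.093 ± 0.20 for Control, 0.012 ± 0.044 for K4 and 0.077 ± 0.058 for Ketamine, so each difference between means was smaller than the SD within Control. Within Control, the order of this level (replicate 2, then 1, then 3) was also that of the mitochondrial share and of the summed astrocyte, microglial and endothelial markers. The summed oligodendrocyte markers had another order, at 1780, 2919 and 2007 CPM in replicates 1, 2 and 3. The part of mitochondrial share and cell types in this level was not tested.

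**Figure D1:**
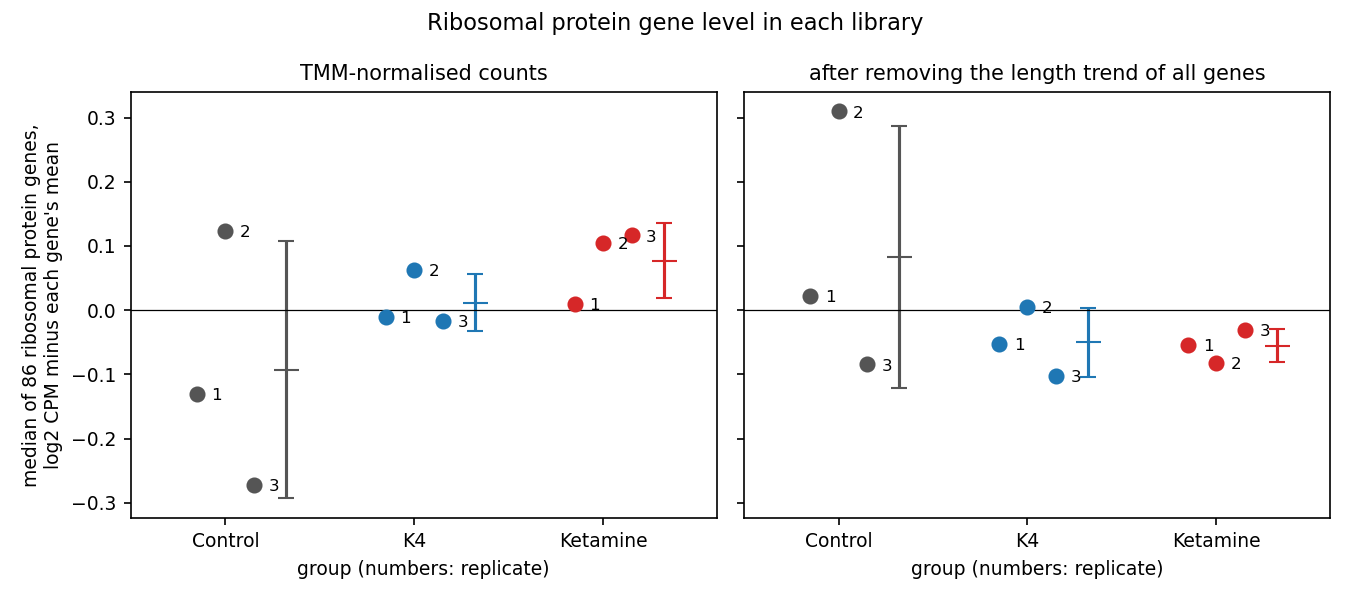
Level of the ribosomal protein genes in each library: the vertical axis is the median over 86 genes of log2 CPM minus the gene's own mean, and the points are libraries with their replicate number. The left panel uses TMM-normalised counts and the right panel the same after taking off the length trend of all genes; bars give mean ± SD (n = 3). Control runs from −0.27 to 0.12 on the left and from −0.084 to 0.31 on the right.

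Across the 3655 pairs of tested genes, the median correlation over the 9 libraries was 0.805, and 96.2% of pairs were positive. These points share library, depth and scaling, and the value is a description. A correlation above 0.8 with the median of all was found for 68 genes, the highest being Rpl22 at 0.988, an RNA-binding protein of the large subunit. It was below 0.5 for 6 genes, all of them paralogs or copies of a core gene: Rpl3l (−0.404), the striated-muscle paralog of Rpl3, Rpl22l1 (0.268), Rps27l (0.372), Rpl10l (0.424), Rpl7l1 (0.466) and Rps4y2 (0.043), a paralog of Rps4x. Rpl3l, Rpl10l and Rps4y2 had low counts, at a mean FPKM of 0.237, 0.609 and 1.11.

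**Figure D2:**
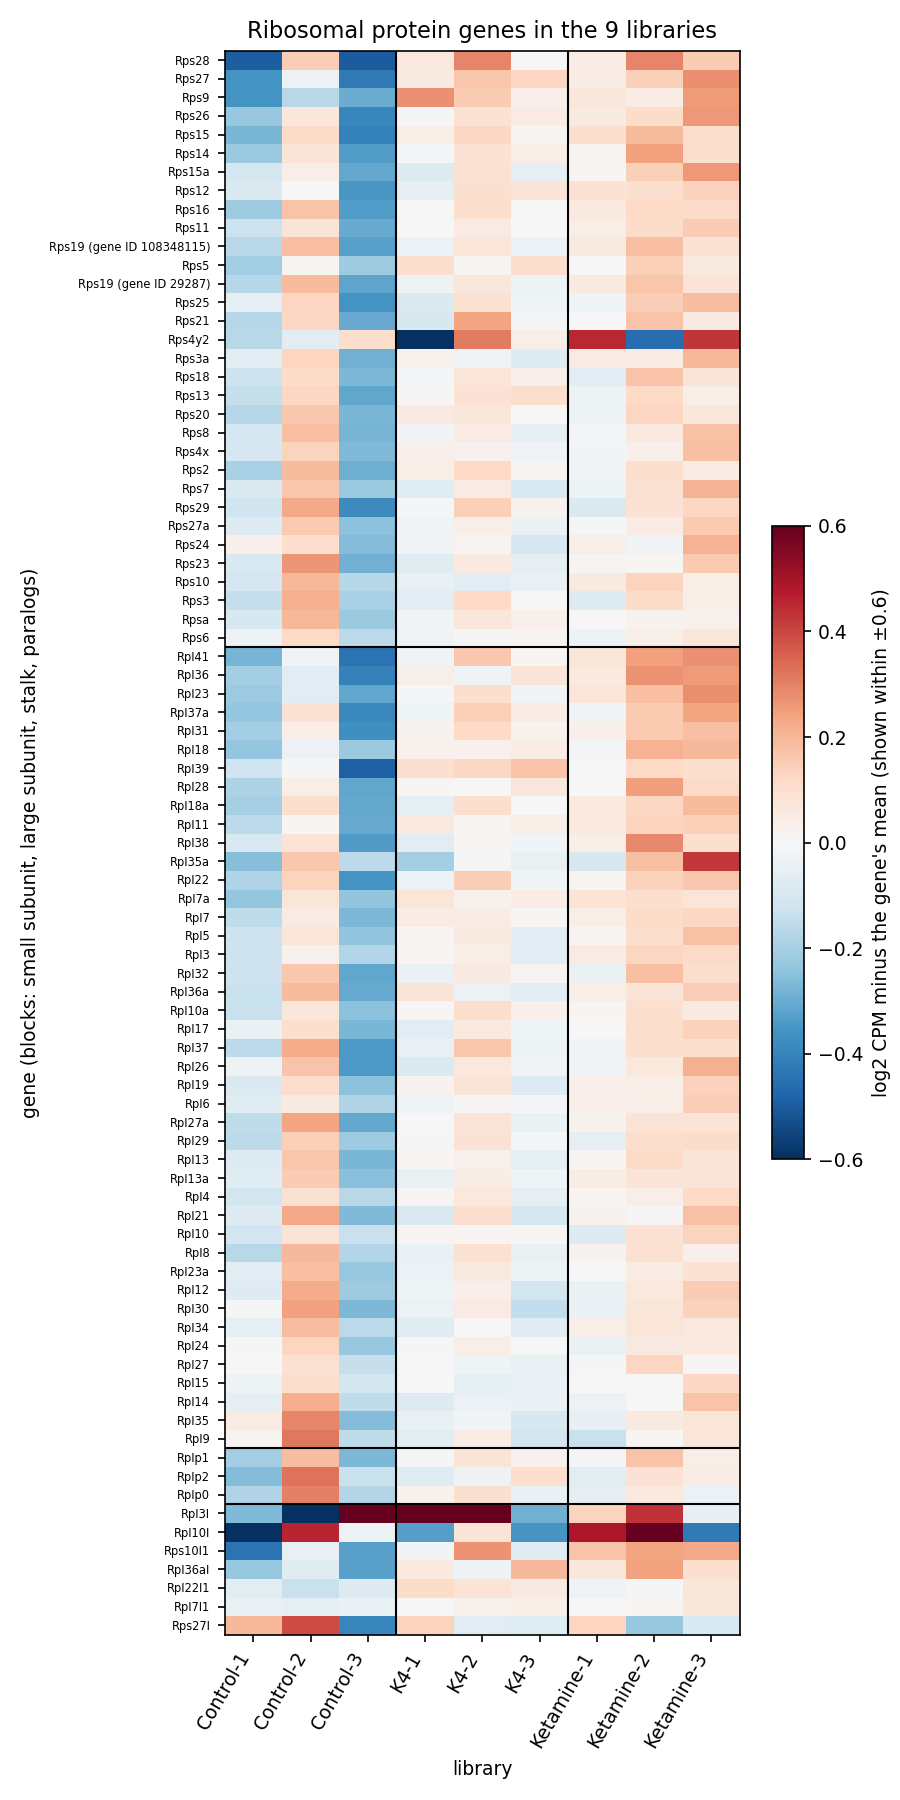
Nearly all tested ribosomal protein genes (rows, in blocks of small subunit, large subunit, stalk and paralogs) in each of the 9 libraries (columns): colour is log2 CPM minus the gene's mean, shown within ±0.6. Most rows are red in Control replicate 2 and blue in Control replicates 1 and 3, while the paralogs Rpl3l, Rpl10l and Rps27l follow patterns of their own.

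Levels per transcript length differed widely between genes of 1 particle. The median FPKM, which is scaled to transcript length and library size, was 170.9 over the tested genes, 65 of which had a mean of at least 100. Rpl41, whose product is a very small peptide of the large subunit, was the highest at 481 FPKM, ahead of Rpl21 at 456 and Rps29 at 369. Rpl35a at 9.51 FPKM, Rplp2 at 8.63 and Rpl8 at 15.0 were far lower. For these 3, most counts stood under other gene entries whose descriptions name the same protein: 95.4% for Rpl35a, 94.6% for Rplp2 and 91.1% for Rpl8. Such copies held 50.5% of the counts of gene and copies together for Rps9, 50.4% for Rps6, 48.0% for Rpl39, 41.1% for Rps27a, 39.5% for Rplp1 and 32.7% for Rps12. How reads were assigned between copies is not given in the sources used here, so single-gene levels of these 9 are uncertain.

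K4 was first compared with Control. Of the 86 ribosomal protein genes, 2 were called higher and none lower at an adjusted p below 0.05 (edgeR quasi-likelihood F test, Benjamini-Hochberg over all genes tested). Over all 18047 genes, 2.27% were called higher and 3.8% lower. An unadjusted p under 0.05 was found for 16 of the 86 (18.6%), against 23.5% of all genes. The median log2 fold change of the ribosomal protein genes was 0.085, against −0.0046 for all genes tested, and 71 of 86 values were positive. In 10 genes (11.6%) every K4 library lay above every Control library, a share below the 13.3% of all genes. In 0 genes did every K4 library lie below every Control library, against 14.2% of all genes.

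Both called genes encode small-subunit proteins. Rps9, whose protein family (uS4) is linked to the accuracy of decoding, stood at 53.0, 60.5 and 55.3 CPM in Control and 82.0, 75.4 and 69.4 in K4. All K4 values were above all Control values, and the log2 fold change was 0.43 (SE 0.080, adjusted p = 0.0127). The call was lost without Control replicate 1 (adjusted p = 0.0596) and without K4 replicate 1 (adjusted p = 0.0597). The copy of Rps9, LOC103689992, had nearly the same levels in every library, at 54.4, 62.1 and 56.4 CPM in Control and 82.9, 76.9 and 71.5 in K4, and was called as well (0.42, adjusted p = 0.0117). With both entries summed, the log2 fold change was 0.42 (adjusted p = 0.0117). How reads were assigned between the entries is not known, so the call of the copy is no separate support for that of Rps9.

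Rps27, a zinc-finger protein of the small subunit, stood at 51.2, 64.0 and 48.8 CPM in Control and 68.2, 73.5 and 71.8 in K4. The groups did not overlap, and the log2 fold change was 0.38 (SE 0.095, adjusted p = 0.0363). This call held in 4 of the 9 fits that leave out 1 library. It was lost without Control replicate 1 (adjusted p = 0.116), without K4 replicate 1, 2 or 3 (0.0804, 0.107 and 0.106, all adjusted p) and without Ketamine replicate 2 (adjusted p = 0.0593). It was also lost in a fit of the 2 groups alone (adjusted p = 0.0703).

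Ketamine was compared with Control in the same way, with the same 3 Control libraries. A gene called in both comparisons is therefore not supported by independent Control values. Higher levels were called for 13 of the 86 genes and lower levels for none, where 6.95% of all genes were called higher and 9.75% lower. Their log2 fold changes lay between 0.26 and 0.48, which is 1.19-fold to 1.39-fold. The median over the 86 genes was 0.15, against −0.0023 for all genes tested, and 82 values were positive. Every Ketamine library lay above every Control library for 15 genes (17.4%), close to the 16.9% of all genes. Every Ketamine library lay below every Control library for 0 of the 86, against 18.1% of all genes. Both Rps9 and Rps27 were among the called genes, Rps9 at 71.1, 70.0 and 81.1 CPM (log2 fold change 0.40, adjusted p = 0.00567) and Rps27 at 67.7, 72.3 and 79.6 CPM (0.42, adjusted p = 0.0104). The Rps27 call was lost without Ketamine replicate 3 (adjusted p = 0.0542), and that of Rps9 held in all 9 fits that leave out 1 library.

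In the large subunit, Rpl23, a protein of the face that meets the small subunit, stood at 101, 112 and 94.8 CPM in Control and 124, 133 and 143 in Ketamine. The groups were apart by more than the spread within either (log2 fold change 0.38, SE 0.074, adjusted p = 0.00488). Rpl36 rose from 38.6, 42.4 and 33.6 CPM in Control to 46.2, 53.5 and 53.1 in Ketamine (log2 fold change 0.42, SE 0.086, adjusted p = 0.00651). Calls of Rpl23 and Rpl36 held in all 9 fits that leave out 1 library. Rpl41 stood at 198, 237 and 177 CPM in Control and 253, 285 and 290 in Ketamine (log2 fold change 0.44, SE 0.097, adjusted p = 0.0104). Its adjusted p became 0.0556 without Ketamine replicate 2 and 0.0506 without Ketamine replicate 3.

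Several other calls were lost in more of these fits. Rpl18, a core protein of the large subunit, stood at 62.5, 71.5 and 62.9 CPM in Control and 72.8, 84.7 and 84.0 in Ketamine (log2 fold change 0.29, adjusted p = 0.0155). It was no longer called without Control replicate 1 (adjusted p = 0.0538), Ketamine replicate 2 (0.0821) or Ketamine replicate 3 (0.0724). Rpl11, which with Rpl5 joins the smallest ribosomal RNA and can bind Mdm2, the regulator of p53, stood at 98.4, 111 and 88.8 CPM in Control and 114, 120 and 121 in Ketamine (log2 fold change 0.26, adjusted p = 0.0289). Its call was lost without Control replicate 1 (adjusted p = 0.0673) or 3 (0.0508), without Ketamine replicate 2 (0.105) or 3 (0.103), and with the 2 groups fitted alone (0.0625). Rpl31 (log2 fold change 0.29, adjusted p = 0.0379), Rps26 (0.32, adjusted p = 0.0452) and Rpl28 (0.27, adjusted p = 0.0456) were called in 3, 1 and 2 of the 9 fits that leave out 1 library. Without Control replicate 1, 3 or Ketamine replicate 2, 3, Rpl31 had adjusted p of 0.0911, 0.0683, 0.131 and 0.134 and Rpl28 had 0.105, 0.0917, 0.2 and 0.112. Leaving out K4 replicate 1 or 3 also ended the call of Rpl31 (0.0581 and 0.056), and leaving out any K4 library that of Rpl28 (0.059 to 0.0688). Rps26 lies at the mRNA exit of the small subunit, and its call remained only in the fit without Control replicate 2, with an adjusted p of up to 0.171 in the others. In Rpl28, Rpl31 and Rps26 the Control and Ketamine values overlapped.

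**Figure D3:**
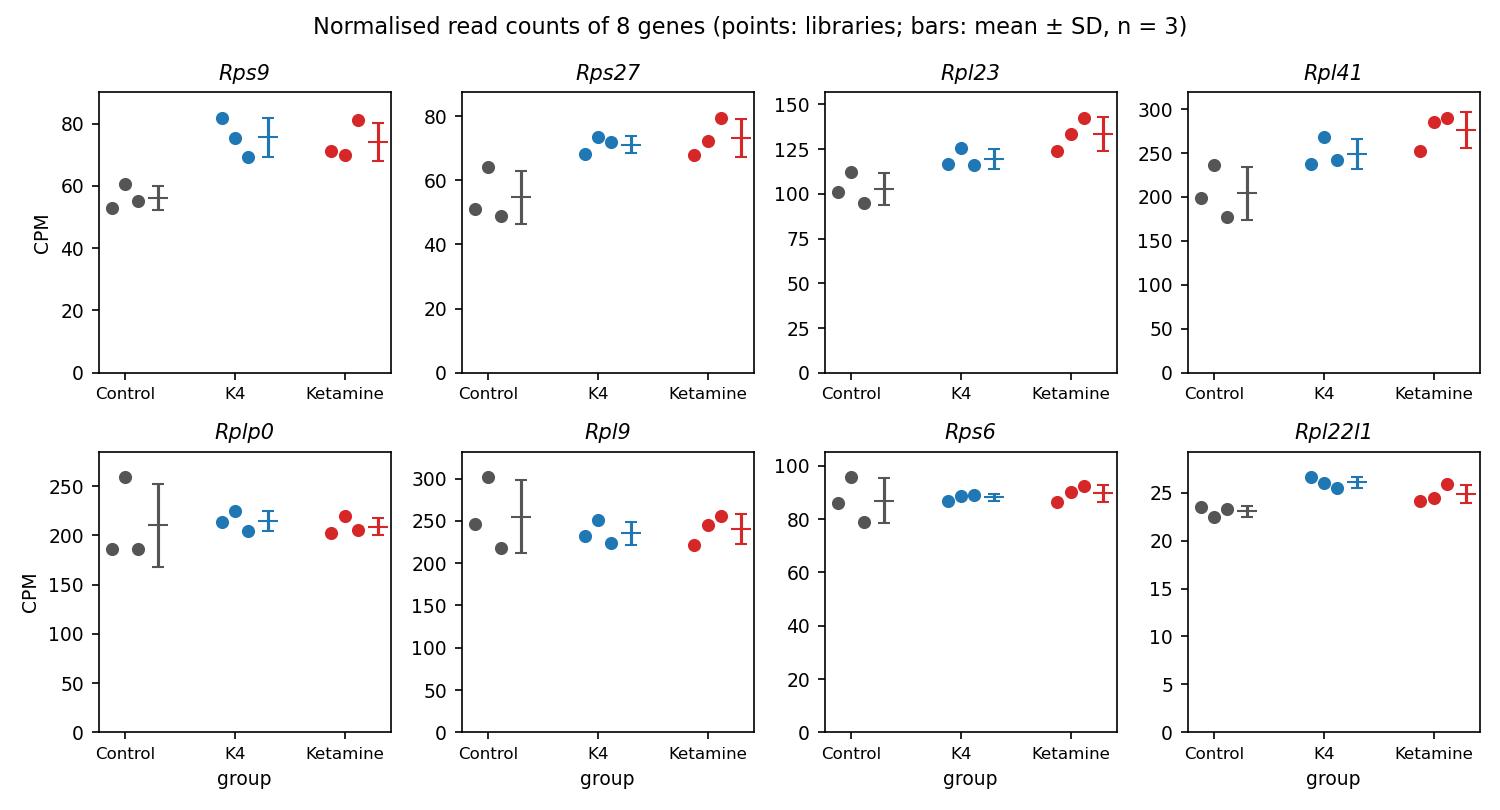
Normalised read counts (CPM, axes from 0) of 8 ribosomal protein genes in each library, with mean ± SD (n = 3) beside the points. Rps9, Rps27, Rpl23 and Rpl41 show Ketamine above Control without overlap, and Rplp0, Rpl9 and Rps6 overlap among all 3 groups.

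Several genes with well-known roles were not called in the main fit of all 9 libraries. Rps6, the small-subunit protein that S6 kinase phosphorylates downstream of mTOR, stood at 86.0, 95.8 and 79.0 CPM in Control, 86.7, 88.6 and 89.1 with K4 and 86.4, 90.2 and 92.6 with Ketamine. Its log2 fold change was 0.020 in K4 (95% interval −0.13 to 0.17) and 0.046 in Ketamine (−0.10 to 0.19). Rpsa, also known as a laminin receptor precursor, had 0.058 in K4 (−0.13 to 0.25) and 0.044 in Ketamine (−0.14 to 0.23). Rps27a, made as a fusion with ubiquitin, had 0.035 (−0.15 to 0.22) and 0.11 (−0.075 to 0.30). Its copy LOC100910768 was called in K4 (0.24, adjusted p = 0.0363) and in Ketamine (0.33, adjusted p = 0.00314). With all entries for this protein summed, it was called in Ketamine only (0.20, adjusted p = 0.0449, against 0.12 and 0.295 in K4).

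Rpl3, which reaches toward the peptidyl transferase centre, stood at 267, 297 and 258 CPM in Control and 301, 318 and 315 in Ketamine. The groups did not overlap, but the difference did not pass the test (log2 fold change 0.19, adjusted p = 0.064). Rpl5, the partner of Rpl11, had a log2 fold change of 0.19 in Ketamine (95% interval 0.024 to 0.36, adjusted p = 0.11), and Rpl10, one of the last proteins to join the large subunit, had 0.10 (−0.050 to 0.26, adjusted p = 0.356). In K4 the values of Rpl3, Rpl5 and Rpl10 were 0.082, 0.092 and 0.064, with adjusted p of 0.478, 0.514 and 0.638. Rpl4, with the highest mean CPM after scaling, had 0.062 in K4 and 0.12 in Ketamine, and Rpl21 −0.0039 and 0.095, none of them called. Without Control replicate 2, Rpl3 (0.25, adjusted p = 0.00547) and Rpl5 (0.28, adjusted p = 0.00649) were called higher in Ketamine. So were Rpl4 (0.20, adjusted p = 0.0237) and Rpl21 (0.24, adjusted p = 0.0469), while Rpl10 was not (0.17, adjusted p = 0.0697). In K4 none of these genes was called without that library. Rpl9 was the lowest in K4 among core genes, at 246, 302 and 218 CPM in Control and 232, 251 and 224 in K4. Its values overlapped in all 3 groups (log2 fold change −0.12 in K4, −0.085 in Ketamine).

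The stalk of the large subunit, which recruits elongation factors, is built on Rplp0 by copies of Rplp1 and Rplp2. Rplp0 stood at 186, 259 and 186 CPM in Control, 214, 225 and 205 with K4 and 203, 219 and 205 with Ketamine. Control replicate 2 was above every treated library and the other Control libraries were below every one of them. Rplp1 stood at 120, 158 and 115 CPM in Control, 138, 146 and 141 with K4 and 138, 156 and 142 with Ketamine. In the main fit of all 9 libraries, the median log2 fold change of the 3 stalk genes was 0.027 in both comparisons and none was called. Rplp2, with most of its counts under copies, had 0.0032 in K4 and 0.027 in Ketamine on its own entry, and 0.16 and 0.20 with the copies summed (adjusted p = 0.264 and 0.122). Without Control replicate 2, Rplp0 was called higher in K4 (0.20, adjusted p = 0.042) but not in Ketamine (0.17, adjusted p = 0.0579). Rplp1 was then called higher in K4 (0.27, adjusted p = 0.0156) and in Ketamine (0.31, adjusted p = 0.00356). The own entry of Rplp2 was called in neither (adjusted p = 0.519 and 0.406).

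By subunit, 2 of 33 small-subunit genes were called higher in K4 and 4 in Ketamine, with medians of 0.12 and 0.18. Of 43 large-subunit genes, 0 were called in K4 and 7 in Ketamine, with medians of 0.068 and 0.14. Over all genes tested, 2.27% were called higher in K4 and 6.95% in Ketamine. These counts and shares are from the main fit of all 9 libraries. Without Control replicate 2, the edgeR fit also called large-subunit genes in K4, among them Rpl41 (log2 fold change 0.41, adjusted p = 0.00524). With the length offset described below, the medians in K4 and Ketamine were −0.035 and −0.042 for the small subunit. For the large subunit they were −0.056 and −0.050. The difference between the subunits was not tested. Of the 9 paralogs by symbol (a protein number followed by l), which leave out Rps4y2, 7 were tested, and 2 were called, both higher in Ketamine. Rpl36al, the paralog of Rpl36a, stood at 25.2, 27.9 and 23.5 CPM in Control and 30.8, 34.8 and 31.4 in Ketamine (log2 fold change 0.34, adjusted p = 0.0179), and its call was lost without Ketamine replicate 2 (adjusted p = 0.0921). Rps10l1, a copy of Rps10, had 9.76, 12.9 and 10.6 CPM in Control and 15.0, 15.7 and 15.6 in Ketamine (log2 fold change 0.48, adjusted p = 0.0179). That call was lost without Control replicate 1 (adjusted p = 0.0657), Ketamine replicate 2 (0.0715) or Ketamine replicate 3 (0.0624).

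Rpl22l1, the paralog of Rpl22, had Control values close together, at 23.5, 22.4 and 23.3 CPM, against 26.6, 26.1 and 25.5 in K4 and 24.1, 24.4 and 25.9 in Ketamine. All treated libraries were above Control, yet the difference was not called in K4 (log2 fold change 0.18, adjusted p = 0.142) or Ketamine (0.11, adjusted p = 0.324). Rpl22 itself stood at 32.6, 40.6 and 28.9 CPM in Control and 36.1, 41.0 and 36.6 in K4, where Control replicate 2 reached the K4 values. Rpl7l1, the longest of the genes and a paralog tied to ribosome assembly, showed 57.2, 56.7 and 57.4 CPM in Control, 58.9, 59.9 and 60.4 with K4 and 59.1, 59.5 and 61.7 with Ketamine. Both treated groups lay above Control without overlap and overlapped each other, with log2 fold changes of 0.066 and 0.074 that did not pass the test (adjusted p = 0.489 and 0.37). Rps27l, the p53-responsive paralog of Rps27, had −0.10 in K4 (95% interval −0.53 to 0.33) and −0.16 in Ketamine (−0.59 to 0.28).

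Leaving out Control replicate 2 changed both counts by far more than 1.5 times. Without it, 37 of the 86 genes were called higher in K4 and 62 in Ketamine, and none lower, where 2.94% (K4) and 6.66% (Ketamine) of all genes were called higher and 5.48% and 9.97% lower. The medians were then 0.20 and 0.28. Without Control replicate 3 the counts were 2 and 9, with medians of 0.024 and 0.083, where 4.1% and 8.02% of all genes were called higher. Without Control replicate 1 they were 0 and 6, against 0.272% and 3.79% of all genes. Leaving out 1 Ketamine library gave 12, 4 and 4 called genes in Ketamine, for replicates 1, 2 and 3, against 5.54%, 2.31% and 3.28% of all genes called higher. Leaving out 1 K4 library gave 0, 1 and 1 in K4, against 0.484%, 0.673% and 0.446%. Rplp1 is an example of a gene that this 1 library decides, with a log2 fold change in Ketamine of 0.15 (adjusted p = 0.347) with it and 0.31 (adjusted p = 0.00356) without it. Rps28, at 16.9, 26.5 and 16.9 CPM in Control and 24.7, 29.3 and 26.6 in Ketamine, had 0.42 (adjusted p = 0.097) with it and 0.67 (adjusted p = 0.000624) without it.

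**Figure D4:**
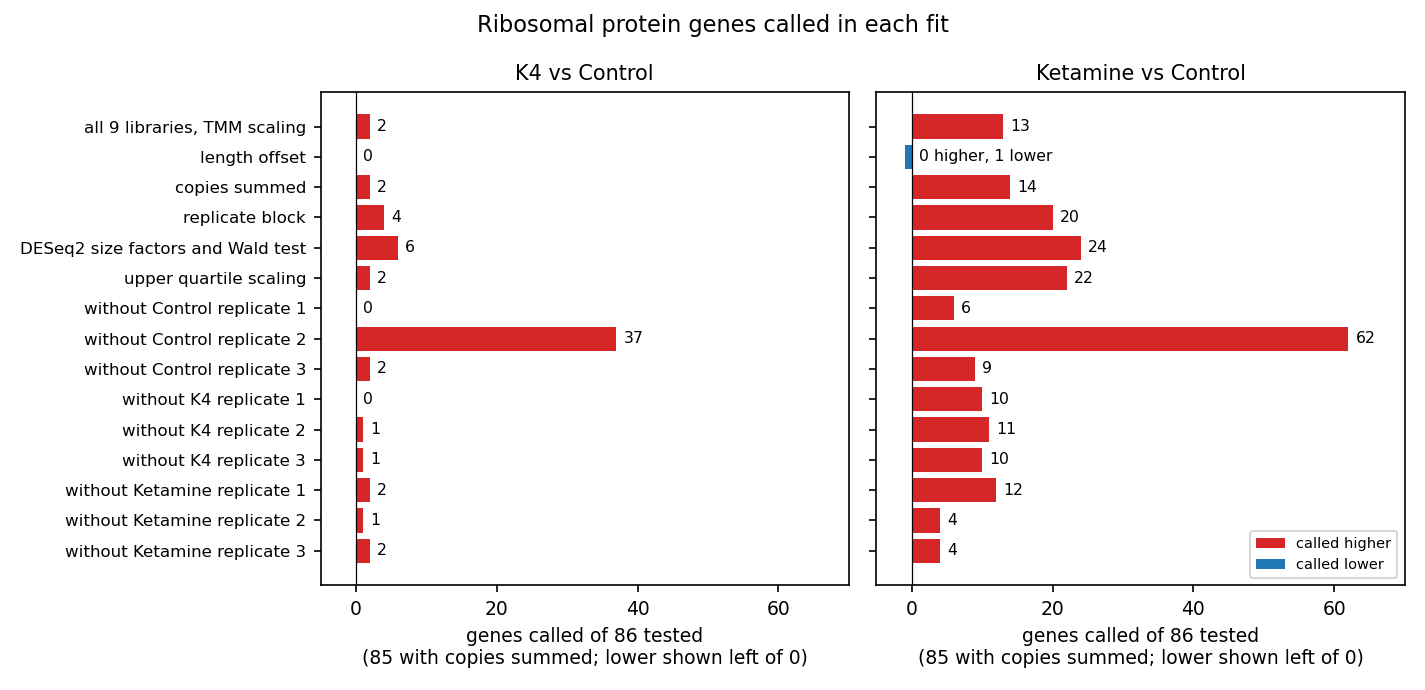
Number of ribosomal protein genes called against Control (adjusted p below 0.05; bars to the left of 0 are called lower) under each setting, of 86 tested (85 with copies summed). The bars for the fits without Control replicate 2 reach 37 for K4 and 62 for Ketamine, and the length offset leaves 0 called higher in both.

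Transcript length was then taken into account, because these mRNAs are among the shortest. A length for each gene was taken as the one implied by its counts and its deposited FPKM. The median was 668 bases for the ribosomal protein genes and 2906 for all tested genes. Rpl39, a small protein of the exit tunnel, was the shortest at 336 bases, and Rpl7l1 the longest at 2836. Under 1 kb lay 71 of the 86, against 7.48% of all tested genes. When all tested genes were split by length into 10 bins of equal number, 77 of the 86 fell in the bin of the shortest genes, from 69 to 1154 bases, and 7 in the next.

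Short genes as a whole stood higher in the treated libraries. In the bin of the shortest genes, the median log2 fold change over all 1805 genes was 0.13 in K4 and 0.21 in Ketamine, above the 0.085 and 0.15 of the ribosomal protein genes. There 4.49% of genes were called higher in K4 and 17.5% in Ketamine. Over all tested genes the log2 fold change fell by 0.070 per doubling of length in K4 and by 0.11 in Ketamine. Among the ribosomal protein genes, it fell by 0.044 and 0.058 per doubling, and the correlation with log2 length across genes was −0.21 and −0.28. Rpl39, the shortest, stood at 25.2, 27.2 and 19.5 CPM in Control and 29.4, 29.9 and 30.9 in K4. In the main fit it had 0.33 in K4 (adjusted p = 0.0779) and 0.27 in Ketamine (adjusted p = 0.091), and was not called in either. Without Control replicate 2 it was called in both (0.43, adjusted p = 0.0149, and 0.37, adjusted p = 0.0164).

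**Figure D5:**
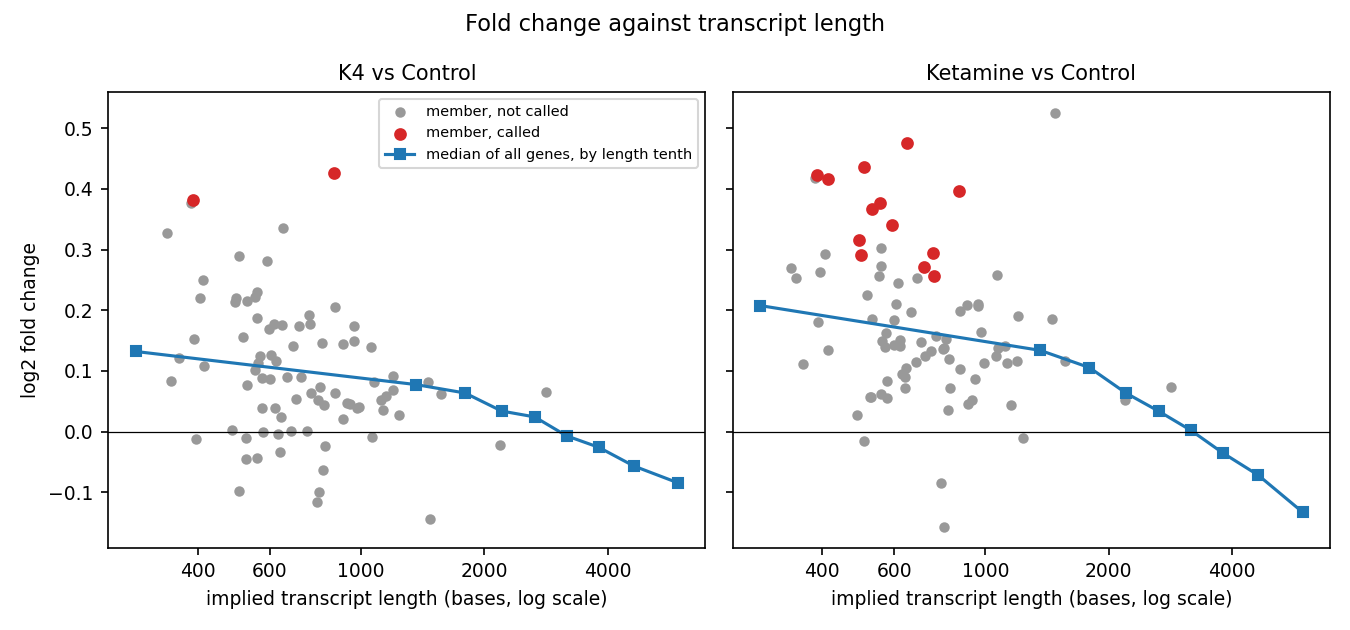
Log2 fold change against implied transcript length (bases, log axis) for the tested ribosomal protein genes except Rpl3l (points, red where called). Blue squares are the medians of all tested genes in each of 10 length bins, with the bin of the longest genes not drawn. The medians of all genes start at 0.13 (K4) and 0.21 (Ketamine) in the first bin, within the range of the points, and fall below 0 for long genes.

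A fit with a length offset took off, for each library, the smooth trend of all genes over length. In this fit no ribosomal protein gene was called in K4, where 1.21% of all genes were called higher and 1.19% lower, and 9 of the 86 (10.5%) had an unadjusted p under 0.05, against 19.7% of all genes. In Ketamine 0 were called higher and 1 lower, where 3.26% and 4.39% of all genes were called. The 1 called gene was Rpl9, a protein of the large subunit (log2 fold change −0.29, adjusted p = 0.0459). Leaving out 1 library at a time, it was called only without Control replicate 3 (adjusted p = 0.00761), and the adjusted p of the other 8 fits ran from 0.0571 to 0.16. The medians of the 86 genes became −0.047 in K4 and −0.044 in Ketamine, of the opposite sign. Rps9 kept the highest value of the 2 genes called in K4, at 0.30 (adjusted p = 0.0595), against 0.20 for Rps27 (adjusted p = 0.117). In Ketamine, Rpl23 had 0.13 (adjusted p = 0.159), Rpl36 0.15 (adjusted p = 0.192) and Rpl41 0.18 (adjusted p = 0.106). The offset removes whatever short genes share, so a change that ribosomal protein genes share with other short genes cannot be told apart from a length effect of the libraries.

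With the trend taken off, the level of the group in each library was 0.023, 0.31 and −0.084 for Control, −0.053, 0.0046 and −0.10 for K4, and −0.054, −0.082 and −0.031 for Ketamine. Control replicate 2 stood alone above the others, and the remaining 8 libraries lay between −0.10 and 0.023. Without Control replicate 2, the length-offset fit called 4 genes higher in K4 and 3 in Ketamine, with medians of 0.042 and 0.034, where 1.89% and 2.97% of all genes were called higher. Without Control replicate 3, it called 4 lower in K4 and 8 lower in Ketamine, with medians of −0.092 and −0.10, where 2.96% and 5.97% of all genes were called lower. In these fits the direction of the group against Control changed with which Control library was left out.

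K4 and Ketamine were compared with each other directly. No ribosomal protein gene was called by edgeR, as none of the 18047 genes was (0.0%), and none of the 86 had an unadjusted p under 0.05, while 1648 genes (9.13%) did. With the 2 groups fitted alone, 12 of the 86 (14.0%) had one, all lower in K4, against 12.8% of all genes, and none was called. Without Control replicate 2, 8 of the 86 (9.3%) had one, all lower in K4, against 12.5% of all genes. DESeq2 called 70 genes (0.388%) and none of the 86. The median log2 fold change of K4 over Ketamine was −0.073, with 11 of 86 values positive, and with the length offset it was 0.00015. In 9 genes (10.5%) every K4 library lay below every Ketamine library, against 8.29% of all genes, and in none did it lie above, against 9.49%. The smallest p was that of Rpl23, at 117, 126 and 116 CPM in K4 and 124, 133 and 143 in Ketamine (log2 fold change −0.16, 95% interval −0.32 to 0.0027, adjusted p = 0.556). Rpl35a had the lowest value among genes of enough counts (−0.28, −0.66 to 0.11) and Rpl22l1 the highest (0.070, −0.078 to 0.22). With the 3 groups tested together, 8 of the 86 genes were called, where 12.2% of all genes were. With the length offset the joint test called none of the 86, where 4.98% of all genes were called, and 11 (12.8%) had an unadjusted p under 0.05, against 21.5% of all genes.

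Other genes of the translation machinery were read from lists. Their counts stand beside shares of all 18047 genes of 2.27% called higher and 3.8% lower in K4. In Ketamine these shares were 6.95% and 9.75%. Among ribosomal proteins outside the naming rule, Fau, made as a fusion with a ubiquitin-like protein, was called in Ketamine (log2 fold change 0.34, adjusted p = 0.024), and Rack1 (0.097, adjusted p = 0.47) was not. Neither was called in K4. Of 10 elongation and nascent chain factors, 3 were called higher in Ketamine, 0 lower, and none in K4. These were Eif5a (0.21, adjusted p = 0.0328), Naca (0.22, adjusted p = 0.0194) and Btf3 (0.23, adjusted p = 0.0182). Naca and Btf3 form the complex that meets new chains at the ribosome.

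Of 29 initiation factors and poly(A)-binding genes, 1 was called higher in K4, and 5 higher and 2 lower in Ketamine. The shares of all genes were 2.27% higher in K4, and 6.95% higher and 9.75% lower in Ketamine. Eif6, which keeps the subunits apart until the large one is mature, was the gene called in K4 (log2 fold change 0.33, adjusted p = 0.0337) and was also called in Ketamine (0.37, adjusted p = 0.0087). The other higher ones in Ketamine were the Eif3 subunits Eif3d, Eif3g, Eif3i and Eif3k, with log2 fold changes of 0.19, 0.24, 0.22 and 0.32. The 2 lower ones were Eif4g1 (−0.29, implied length 6188 bases) and Eif1ax (−0.20, 3456 bases). Larp1, the TOP-tract binding protein, was in this list and was not called. Of 25 ribosome assembly genes, Nob1 was called higher (0.27) and Mdn1, at 19548 bases the longest, lower (−0.22) in Ketamine, and none was called in K4. Of 67 pseudogene copies of ribosomal protein genes 18 were tested and 0 were called in either comparison, with medians of 0.30 in K4 and 0.34 in Ketamine. With the length offset, no gene of the ribosomal protein, elongation or initiation lists was called higher in either comparison. The initiation factors Eif2s2 (−0.22, adjusted p = 0.0255) and Eif3j (−0.24, adjusted p = 0.0387) were then called lower in Ketamine, and the assembly genes Polr1a and Ubtf higher (0.24 and 0.19). That fit called 3.26% of all genes higher and 4.39% lower in Ketamine.

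Cell type markers differed between the same groups. Beside their counts stand shares of all genes of 2.27% called higher and 3.8% lower in K4, and 6.95% and 9.75% in Ketamine. Of 7 astrocyte markers 2 were called lower in K4 and 5 in Ketamine, and their summed level ran from 3531 to 5658 CPM in Control, 3178 to 3616 in K4 and 3033 to 3275 in Ketamine. Of 7 endothelial and mural markers 3 were lower in each comparison (265.9 to 391.2 CPM in Control, 224.2 to 263.4 in K4, 178.8 to 208.8 in Ketamine). Of 7 microglial markers 1 was lower in K4 and 3 in Ketamine (260.6 to 382.1, 264.7 to 281.1 and 244.9 to 261.4 CPM). Among 7 neuronal markers 1 was higher (Stmn2) and 1 lower (Gad2) in Ketamine and none was called in K4 (4097 to 5196, 4777 to 5194 and 5069 to 5172 CPM). Of 7 oligodendrocyte markers 1 was higher in K4, and of 5 striatal markers 1 was higher in each comparison. None of 3 blood genes was called, and of 4 choroid plexus markers Ttr and Folr1 were too low to be tested. Their part in the ribosomal protein result was not tested, and in bulk tissue fewer cells of a type and less RNA per cell cannot be told apart.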

How the data were processed

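RNA was extracted with RNeasy kits and libraries were made with a stranded poly(A) kit (TruSeq), per the labels' protocols. The submitters' processing notes name bcl2fastq 2.20.0, Trimmomatic, HISAT2 2.1.0, StringTie 2.1.3b and build rn6. Raw counts per gene were deposited for 9 libraries. The tool that counted reads, and its strand setting, is not given in the sources used here, so genes with overlapping or near-identical partners are uncertain. FPKM and TPM values, named so per the file headers, were deposited too.

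The members and lists were chosen with earlier results of these data known. Counts were fitted in R 4.3.3 with edgeR 4.0.16: TMM scaling, filterByExpr by group (minimum count 10, minimum total 15), and a robust quasi-likelihood fit of 9 libraries in 3 groups. P-values were adjusted by Benjamini-Hochberg over 18047 genes, and a gene was called below 0.05. The common biological coefficient of variation was 10.2%, and intervals cover 95%. CPM are counts scaled by TMM to library size, and centred values used a prior count of 2. The implied length of a gene is its counts divided by its FPKM and by the library total, with unit factors removed. The length offset is a lowess curve (span 0.3) of centred log2 CPM over log2 length in each library. DESeq2 1.42.0 on counts and limma 3.58.1 on log2(FPKM + 1) or log2(FPKM + 0.1) were alternatives. Scripts were tested on simulated data. The values of some single genes are not reported here. Genes named were the called members with the smallest p (up to 8 per pair of groups and direction, or the smallest p where none was called), the highest and lowest fold changes among genes whose mean log2 CPM was 0 or more, the 3 members with the highest mean CPM, the shortest and longest, and a set fixed for its roles; the remaining called members named, Rps28, Rpl10l and genes of lists were chosen after their values were seen.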

Additional observations from a re-analysis of the deposited data

How the results depend on the processing

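In brackets after a count is the share of all genes called higher in the same fit. The count of genes called in K4 over Control (2) became 6 with DESeq2 (4.23%), 5 with log2(FPKM + 0.1) (1.86%), 8 with log2(FPKM + 1) at a mean FPKM of at least 1 (3.68%), 1 with the 2 groups alone (0.805%), and 0 with the length offset, alone, with the replicate block or with copies summed (1.21% to 1.23%). In Ketamine over Control (13) it became 24 with DESeq2 (8.64%), 22 with upper quartile scaling (8.79%), 28 with log2(FPKM + 1) (8.09%), 29 with log2(FPKM + 0.1) (8.17%), 32 at a mean FPKM of at least 1 (12.4%) and 8 with the 2 groups alone (5.09%). It became 1, called lower, with the length offset alone or with the replicate block (4.39% and 4.63% of all genes lower), and 0 with the length offset and copies summed. The replicate block alone gave 4 (2.38%) and 20 (7.23%). Same-numbered libraries deviated with correlations of 0.0024 to 0.11, all positive but not all above 0.1. Most correlations between different numbers were negative (−0.16 to 0.069). Control 3 correlated more with K4 2 (0.050) than with K4 3 (0.0024). The numbers were not taken to pair the libraries in the main fit, and pairing was not tested. Leaving out 1 library gave 0 to 37 genes in K4 and 4 to 62 in Ketamine, and 0 to 4 and 0 to 8 with the length offset. The median in K4 (0.085) ran from 0.024 to 0.20 over these fits and from −0.092 to 0.042 with the length offset; in Ketamine (0.15) it ran from 0.083 to 0.28 and from −0.10 to 0.034. Medians changed sign with the length offset (−0.047 and −0.044), also with the offset and the replicate block (−0.046 and −0.036) and with the offset and copies summed (−0.030 and −0.036). In length-offset fits without Control replicate 1, 3, K4 replicate 1, 2, 3 or Ketamine replicate 1, 2, 3 the median in K4 was −0.063, −0.092, −0.043, −0.052, −0.035, −0.048, −0.046 and −0.046. In Ketamine it was −0.062, −0.10, −0.043, −0.043, −0.043, −0.033, −0.042 and −0.054 in the same order. In these fits Rpl11 in Ketamine was −0.0011 without Control replicate 3. In K4 over Ketamine, 0 genes were called in every setting run, and the medians without 1 library ran from −0.10 to −0.043, and from −0.012 to 0.018 with the length offset. The mean share of counts (0.938%, 1.075% and 1.128% in Control, K4 and Ketamine) was 1.109%, 1.205% and 1.273% without mitochondrial counts and 2.854%, 3.469% and 3.539% of TPM. Settings with copies summed, and the length offset without each library, were chosen after seeing the data. The causes of these changes were not tested. With 3 libraries a group, the precision for a single gene is that of the 95% intervals given beside it.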
